A study of Mus musculus with 6 samples.

Results

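Cytosolic ribosomal protein genes encode the proteins of the large and small ribosomal subunits. They were followed in cultured granulocytes of C57BL/6J mice on 6 Affymetrix Mouse Gene 1.0 ST arrays. Members were chosen by symbol: probe sets annotated to exactly 1 gene whose symbol is Rpl or Rps with a number and at most 1 further letter, or Rplp0, Rplp1, Rplp2 or Rpsa. The rule used no measured difference between groups, and it found 191 probe sets of 59 genes among 19937 genes tested. Where a gene had several probe sets, the one brightest on average across all arrays stood for it, which gave 37 large subunit and 22 small subunit genes.

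The caffeine+ group (3 arrays) came from cells given actinomycin D, an inhibitor of transcription, at 2 µg/ml together with caffeine for 4 hours. The caffeine- group (3 arrays) came from cells given actinomycin D alone for the same time. Per the labels' protocols, cells of both groups had first been exposed to 15 mM caffeine for 4 hours and washed, although the caffeine- samples are described as not treated with it. Caffeine is used as an inhibitor of SMG1, a kinase of nonsense-mediated mRNA decay (NMD), and the series is about intron retention in granulocytes. Actinomycin D was thus present in both groups, and no untreated cells were compared.

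Ribosomal protein mRNAs are among the most abundant and most stable mRNAs of most cells, and their translation is controlled together through a pyrimidine tract at the 5′ end, the terminal oligopyrimidine (TOP) tract, which responds to the kinase mTOR. Nearly every protein is present as a single copy per ribosome, and most of the genes are expressed together. Some ribosomal proteins limit their own synthesis by splicing their pre-mRNA into NMD-sensitive forms, RPL3 and RPL12 in human cells among them. Ribosomal protein genes also have many near-identical processed pseudogenes, so array probes for them can take up signal of other copies. Each value below is that of a probe set and is uncertain as to the copy, and the brightness of different probe sets does not rank their transcripts by abundance.

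The start regions of 9 members are shown because the tract that this family is known for lies at the start, and because the genes include both members that rose, several of the largest falls and members that did not pass the test. Each run covers 10 bases before and 20 bases after a start annotated by RefSeq in GRCm38.p6, read 5′ to 3′ on the gene's strand, with the longest run of C and T in capitals. That run need not be a TOP tract: in Rpl19 and Rps27l it lies wholly before the annotated start. Where a gene has several annotated starts, the one with the longest such run is printed. They are:
Rpl12 (chr2:32961702-32961731, + strand): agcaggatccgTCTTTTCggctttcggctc
Rps15a (chr7:118116128-118116157, - strand): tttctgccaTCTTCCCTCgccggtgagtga
Rps21 (chr2:180257369-180257398, + strand): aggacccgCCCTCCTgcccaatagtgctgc
Rps27l (chr9:66946076-66946105, + strand): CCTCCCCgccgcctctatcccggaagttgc
Rpl14 (chr9:120571507-120571536, + strand): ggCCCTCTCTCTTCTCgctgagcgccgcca
Rpl19 (chr11:98026914-98026943, + strand): TCTCCCCTTCgcagataatgggcggagcct
Rpsa (chr9:120127756-120127785, + strand): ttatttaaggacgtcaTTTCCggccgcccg
Rplp2 (chr7:141447641-141447670, + strand): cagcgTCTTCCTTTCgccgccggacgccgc
Rps6 (chr4:86857348-86857377, - strand): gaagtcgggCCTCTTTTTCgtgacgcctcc

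Promoter entries were found for 47 of the 59 members. In the same 30-base window, CTTTC or CTTCC on the gene's strand, short pieces typical of the TOP tract that can overlap each other, occurred at a start of 15 of the 47 (31.9%), against 11.5% of 27025 genes with an entry. A run of at least 8 pyrimidines occurred in 15 of 47 (31.9%), against 3517 of those 27025 genes. In the whole 300-base entry, CCGGAAG on either strand, a core bound by ETS factors, occurred in 18 of 47 (38.3%), against 9.9% of all genes with an entry and 13.6% of the 15613 measured on the array. AAGATGG on either strand, a core bound by YY1, occurred in 4 of 47 (8.5%), against 7.3%. Of the 15 members with CTTTC or CTTCC in the window, 2 were higher and 6 lower (40.0%) in caffeine+. Their median log2 difference was -0.09. Among the 32 without it 0 were higher and 19 lower (59.4%), with a median of -0.13. Of all genes, 16.2% were higher and 21.7% lower. These matches are descriptions of the letters, and starts annotated a few bases off would move the window. The 2 strings do not separate members with and without a TOP tract. Rps6 and Rpl14, with runs of 10 and 14 pyrimidines, hold neither string, and Rpl12 holds CTTTC only outside its longest run.

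The deposited values are log2 intensities, and differences below are caffeine+ minus caffeine- on that scale with their standard errors, from limma fitted over all genes with Benjamini-Hochberg adjustment, n = 3 arrays per group. Array medians over 34760 probe sets were 6.51, 6.49 and 6.54 in caffeine+ and 6.60, 6.53 and 6.59 in caffeine-. The labels do not say what separates the replicates, so the p-values rest on array-to-array spread that could be purely technical. Of the granulocyte markers, with Mpo and S100a9 the brightest, 10 of 10 fell. The log2 of that list's summed signal was 13.94 to 13.99 in caffeine+ arrays and 14.49 to 14.55 in caffeine- arrays. Of the monocyte markers 6 of 7 fell and 1 rose, with summed levels of 12.30 to 12.37 in caffeine+ arrays and 12.63 to 12.71 in caffeine- arrays. Of the basophil and eosinophil markers 3 of 5 fell, with summed levels of 12.20 to 12.23 in caffeine+ arrays and 12.89 to 13.05 in caffeine- arrays. Of the B cell markers 1 of 4 fell (summed levels 7.96 to 8.22 in caffeine+ and 8.89 to 8.93 in caffeine-), and of the erythroid markers 1 of 4 (8.34 to 8.43 in caffeine+ and 8.58 to 8.72 in caffeine-). Of the T cell markers 0 of 5 passed limma's threshold, with 1 at an unadjusted p under 0.05 (8.07 to 8.41 in caffeine+ and 8.19 to 8.34 in caffeine-). Log2 intensities have no true 0, and the part of these shifts in the results on ribosomal protein genes was not tested. In bulk RNA, fewer cells of a type and less RNA per cell cannot be told apart.

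Most ribosomal protein genes had slightly lower values in caffeine+ cells, and how many passed the test depended on the scaling and the variance model. Of the 59 members 31 were lower and 2 higher (limma adjusted p under 0.05), against 21.7% lower and 16.2% higher among all genes. The median difference of the members was -0.13, a 1.09-fold lower level, and that of all genes was -0.04. In 53 of 59 the difference was negative, against 57.3% of all genes, and the 53 became 44 under quantile normalization and 48 with arrays centred on their medians. In 39 every caffeine+ array lay below every caffeine- array (26.3% of all genes), while in 3 every caffeine+ array lay above (19.5% of all genes). The median over the 59 members was 12.48, 12.43 and 12.37 on the caffeine+ arrays, against 12.64, 12.59 and 12.60 on the caffeine- arrays. With each array centred on its median, 14 members (23.7%) were lower, against 18.8% of all genes in that fit. Without the intensity trend in limma 11 members (18.6%) were lower, a smaller share than the 21.1% of all genes. Without caffeine+ array 3 the count was 20 (33.9%), against 20.8% of all genes. The same 11 members were lower in every one of the 16 planned settings.

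**Figure D1:**
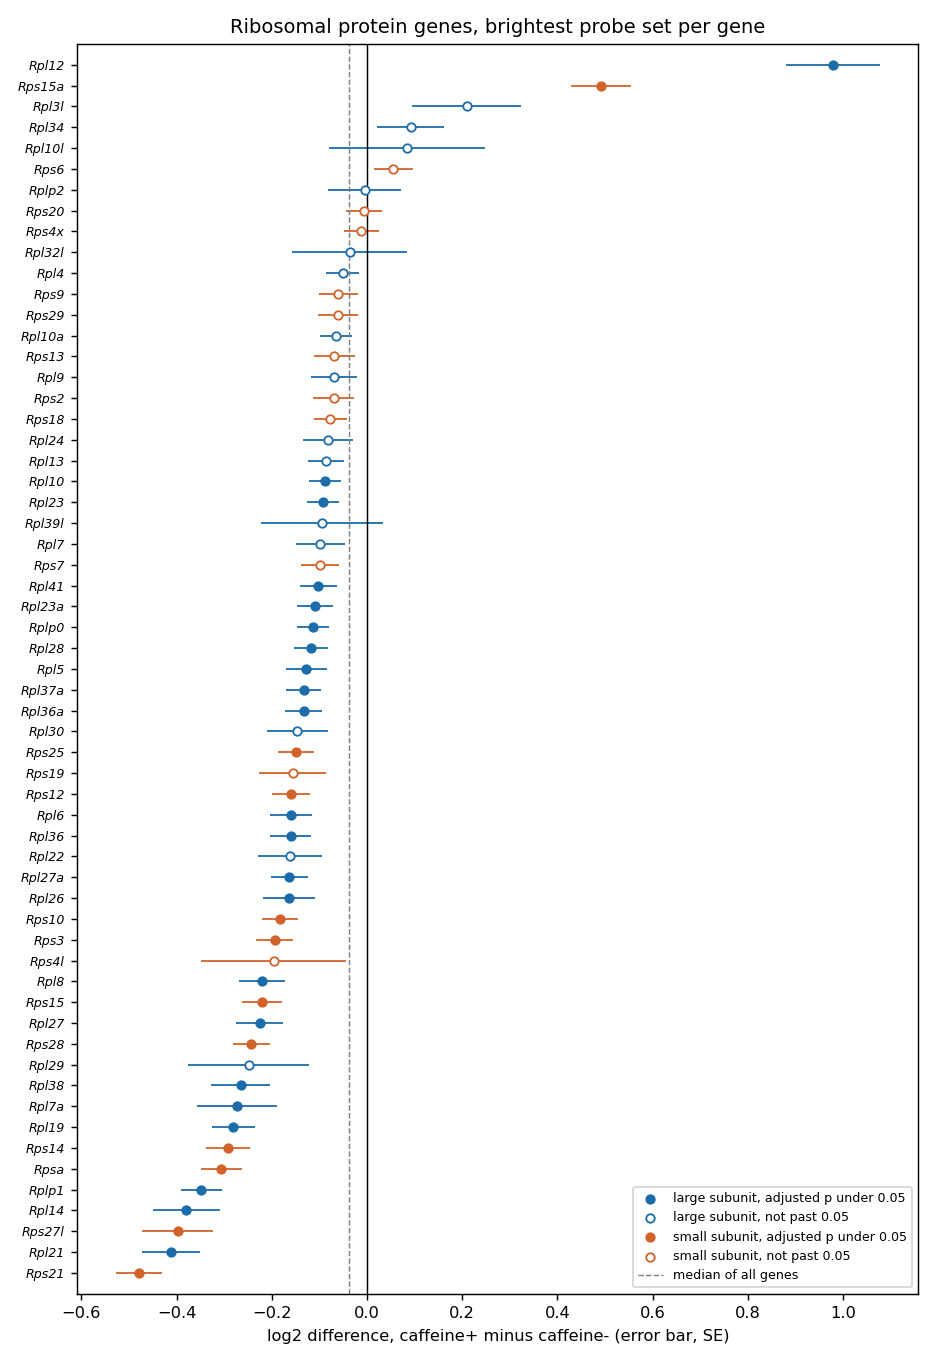
Log2 difference (caffeine+ minus caffeine-, bar SE, n = 3 arrays per group) of the 59 ribosomal protein genes in order of size, large subunit in blue and small subunit in orange, filled where limma's adjusted p was under 0.05. Of the 59, 53 lie left of 0, and Rpl12 and Rps15a are the filled points on the right.

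Rps21, a small subunit protein, had log2 levels of 10.98, 11.05 and 11.03 in caffeine+ cells, against 11.49, 11.47 and 11.54 in caffeine- cells. The groups lay well apart, and the difference of -0.48 ± 0.05 (limma adjusted p = 7.6e-07) made it 1.39-fold lower, the largest fall among the 59 in this scaling. Under quantile normalization Rps27l (-0.50), Rpl14 (-0.46) and Rpl21 (-0.44) fell by more than Rps21 (-0.43). Its dimmer probe set gave -0.56 ± 0.09 (limma adjusted p = 0.0021 in a fit of every probe set).

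Rpl21, a large subunit protein, had log2 levels of 10.33, 10.31 and 10.48 in caffeine+ cells, against 10.81, 10.73 and 10.82 in caffeine- cells (difference -0.41 ± 0.06, limma adjusted p = 4.2e-05), and its brightest shared probe set gave -0.12 ± 0.03. Rpl14, another large subunit protein, had 9.80, 9.87 and 9.83 in caffeine+ cells, against 10.36, 10.14 and 10.12 in caffeine- cells (difference -0.38 ± 0.07, limma adjusted p = 0.00036). Neither gene's groups overlapped, and Rpl14 spread more within caffeine- (SD 0.13) than within caffeine+ (SD 0.04). Rpl19, of the large subunit, had 11.88, 11.99 and 11.89 in caffeine+ cells, against 12.23, 12.17 and 12.21 in caffeine- cells (difference -0.28 ± 0.04, limma adjusted p = 8.7e-05), and its groups did not overlap.

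Rplp1 encodes one of the acidic proteins of the P stalk, which recruits elongation factors. Its log2 levels were 12.18, 12.11 and 12.09 in caffeine+ cells, against 12.42, 12.51 and 12.50 in caffeine- cells (difference -0.35 ± 0.04, limma adjusted p = 8.0e-06). The stalk's base, Rplp0, differed by -0.11 ± 0.03 (limma adjusted p = 0.012), a call lost in 5 of 17 settings. The other acidic stalk protein gene, Rplp2, had 8.48, 8.46 and 8.57 in caffeine+ cells and 8.52, 8.57 and 8.44 in caffeine- cells. These overlapped, with a difference of -0.01 ± 0.08 (limma adjusted p = 0.97). Whether the stalk genes' differences differ from each other was not tested.

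Rpsa, a small subunit protein also known as a laminin receptor, had log2 levels of 11.99, 12.02 and 12.01 in caffeine+ cells, against 12.35, 12.25 and 12.34 in caffeine- cells (difference -0.31 ± 0.04, limma adjusted p = 2.3e-05). Rps14, whose human counterpart is lost in the 5q- syndrome, had 12.13, 12.16 and 12.10 in caffeine+ cells, against 12.47, 12.34 and 12.47 in caffeine- cells (difference -0.29 ± 0.05, limma adjusted p = 7.7e-05). In both genes every caffeine+ array was below every caffeine- array. Rps3, a small subunit protein with a role in DNA repair, fell by 0.19 (SE 0.04, limma adjusted p = 0.00071). Rps19, mutated in human Diamond-Blackfan anaemia, overlapped between groups (-0.16 ± 0.07, limma adjusted p = 0.099) and passed without caffeine- array 1 (limma adjusted p = 0.013). It passed also with the replicate block (limma adjusted p = 0.030), and over 17 settings its adjusted p ran from 0.013 to 0.40.

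**Figure D2:**
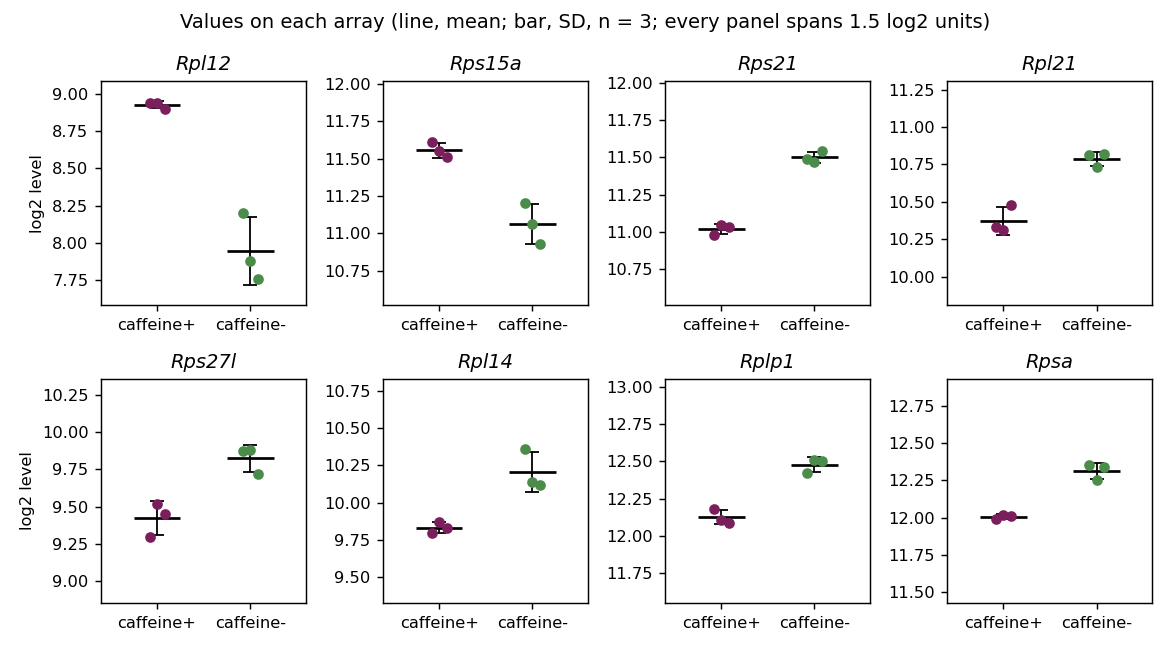
Log2 level on each array (points) with the group mean (line) and SD (bar, n = 3) for the 2 rises and the 6 largest falls, caffeine+ left and caffeine- right, each panel spanning 1.5 log2 units. No panel has overlapping groups, and the caffeine- arrays of Rpl12 spread over 7.76 to 8.20.

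The exceptions were Rpl12 and Rps15a. Rpl12, a large subunit protein near the factor-binding stalk, had log2 levels of 8.94, 8.94 and 8.90 in caffeine+ cells, against 8.20, 7.88 and 7.76 in caffeine- cells. All caffeine+ arrays were higher, and the gene was 1.97-fold higher (difference 0.98 ± 0.10, limma adjusted p = 7.3e-07). Rps15a, a small subunit protein, had 11.61, 11.55 and 11.51 in caffeine+ cells, against 11.20, 11.06 and 10.93 in caffeine- cells. Its groups did not overlap either, and it was 1.41-fold higher (difference 0.49 ± 0.06, limma adjusted p = 9.6e-06). Each of these genes has only 1 probe set of its own. The settings that average probe sets or take the second-brightest therefore reused it, and could not change the differences. Both calls held in the 17 settings that read a gene from its own probe sets. They were reversed when shared probe sets were counted in and the brightest taken for each symbol, which gave -0.12 for Rpl12 and -0.13 for Rps15a, both lower (limma adjusted p = 0.048 and 0.029).

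The probe sets behind that reversal are annotated to several symbols, so they stood outside the symbol rule. They were read in a fit of every probe set, in which 13.9% were higher and 16.2% lower. Of 7 shared probe sets that name Rpl12, 3 fell, 1 rose and 3 did not pass. The one that rose, shared with the snoRNA gene Snora65, had log2 levels of 9.12 ± 0.12 in caffeine+ cells and 8.09 ± 0.06 in caffeine- cells (SD, n = 3), a difference of 1.03 ± 0.08 (limma adjusted p = 8.7e-05). In the reference annotation Snora65 lies within the span of Rpl12. The brightest, shared with Gm32899, had 13.11 ± 0.03 in caffeine+ cells and 13.23 ± 0.05 in caffeine- cells (SD, n = 3), a difference of -0.12 ± 0.04 (limma adjusted p = 0.048). For Rps15a, both shared probe sets fell, by 0.13 and 0.25 (limma adjusted p = 0.029 and 0.012). Which exons, introns or copies each probe set covers is not known here.

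**Figure D3:**
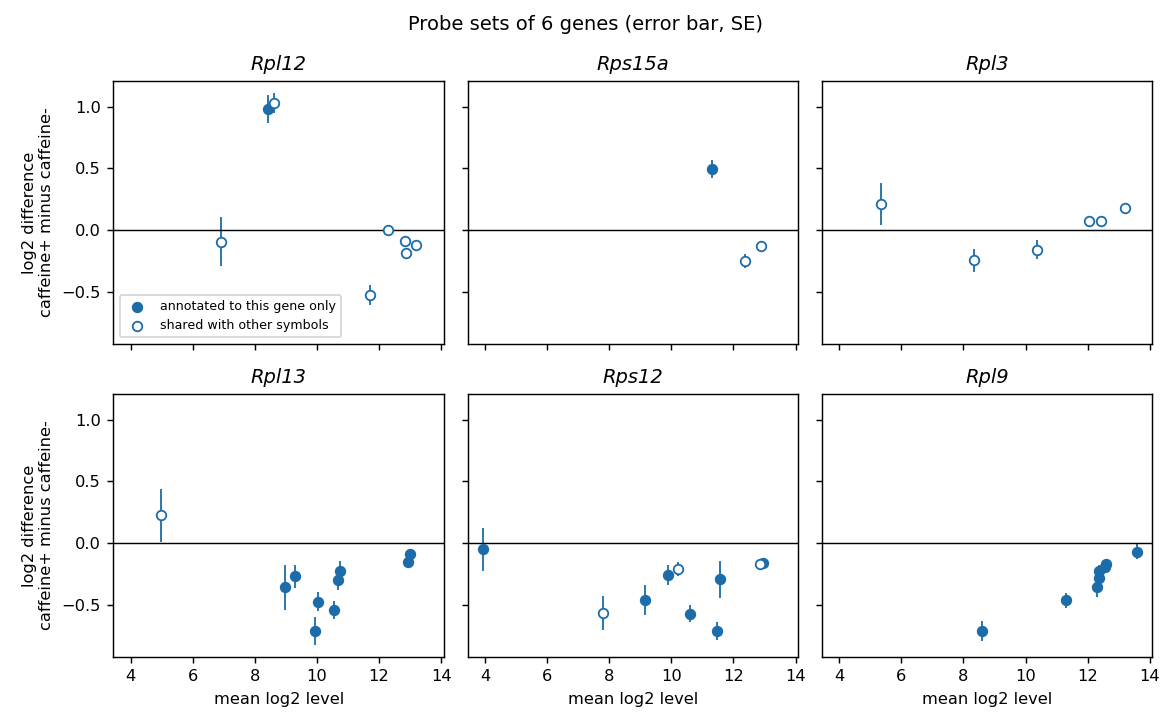
Log2 difference (caffeine+ minus caffeine-, bar SE) against mean log2 level for every probe set naming 6 genes, filled where annotated to that gene alone and open where shared. Rpl12 and Rps15a each have a filled point above 0 and open points near or below 0, apart from the open Rpl12 point at 1.03 that is shared with Snora65, and in Rpl9 the brightest probe set has the smallest fall.

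Shared probe sets also reached 16 ribosomal protein genes that no probe set of their own represents. At the brightest shared probe set of each, 4 were lower, 1 was higher and 11 did not pass, with a median difference of -0.08. In that fit, of every probe set, 16.2% were lower and 13.9% higher. The rise was Rpl3, a large subunit protein close to the peptidyl transferase centre. Its log2 level was 13.29 ± 0.04 in caffeine+ cells and 13.11 ± 0.02 in caffeine- cells (SD, n = 3), a difference of 0.18 ± 0.03 (limma adjusted p = 0.0052). That probe set also names Gm5879, Rpl3-ps1, Ralgps2 and Syngr1, and none of the other 5 Rpl3 probe sets passed limma's threshold (adjusted p between 0.093 and 0.46, with 1 of them at an unadjusted p under 0.05). The 4 falls were Rps27 (-0.35 ± 0.05), Rpl35 (-0.34 ± 0.04), Rpl35a (-0.21 ± 0.05) and Rps23 (-0.12 ± 0.03). The Rpl35 probe set also names Itgam, an integrin gene of myeloid cells. Those of Rpl35a, Rps23 and Rps27 also name Ino80, Gm8624 and Rps27rt, in that order. With shared probe sets counted in, 31 of 75 genes were lower and 2 higher, and those 2 were Rpl3 and Rpl34 (0.22 ± 0.05, limma adjusted p = 0.012). That Rpl34 probe set also names Gm4705 and Rpl34-ps1. Rpl34's own probe set did not pass (0.09 ± 0.07, limma adjusted p = 0.37). Rpl11, which with Rpl5 binds the p53 regulator Mdm2, differed by -0.06 ± 0.05 (limma adjusted p = 0.47). Rpl13a and Rpl39 differed by -0.07 ± 0.05 (limma adjusted p = 0.31) and -0.10 ± 0.05 (limma adjusted p = 0.19). The probe sets of Rpl11, Rpl13a and Rpl39 also name Brf2, Zfp526 and Gm32211, in that order. Rps27a was not analysed here.

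Differences were negative in 33 of 37 large subunit genes and 20 of 22 small subunit genes. Among 37 large subunit genes 21 were lower (56.8%) and 1 higher, with a median difference of -0.12 and a range of -0.41 to 0.98. Among 22 small subunit genes 10 were lower (45.5%) and 1 higher, with a median of -0.15 and a range of -0.48 to 0.49. Among all genes 21.7% were lower. The median of the large subunit genes was 12.25, 12.38 and 12.35 on the caffeine+ arrays, against 12.48, 12.51 and 12.56 on the caffeine- arrays. That of the small subunit genes was 12.57, 12.56 and 12.51 on the caffeine+ arrays, against 12.72, 12.71 and 12.70 on the caffeine- arrays. In both subunits each caffeine+ array lay below each caffeine- array. The medians of whole arrays, also mostly lower in caffeine+, overlapped between groups. Under quantile normalization the median differences were -0.053 for large and -0.0861 for small subunit genes, and with arrays centred on their medians -0.0585 and -0.0939. The order of the subunits was not stable: without caffeine+ array 1, caffeine+ array 3 or caffeine- array 3 the large subunit median was the more negative (without caffeine+ array 1, -0.1255 for large and -0.1135 for small). At a mean log2 level of 12 or more the large subunit median was also the more negative (-0.1175, against -0.0986). There 17 of 23 large (73.9%) and 8 of 17 small subunit genes (47.1%) were lower. Below a level of 10 lay 11 large and 2 small subunit genes. Members are not replicates, so the subunits were compared by these counts and medians, without a test.

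Above a log2 level of 10, the difference shrank with the brightness of the probe set. In the fit of every probe set, the 25 of the 191 with a mean log2 level of 13 or more had a median difference of -0.09, with 7 lower. The 55 between 12 and 13 had a median of -0.17, with 37 lower, and the 50 between 10 and 12 had -0.34, with 31 lower and 1 higher. The 61 below 10 had a median of -0.26, with 17 lower and 1 higher. Genes outside the family, in the fit over genes, were lower in 37.75% and higher in 39.84% between 10 and 12 (median 0.01). Between 12 and 13, 42.65% were lower and 14.71% higher (median -0.07), and below 10, 20.67% and 14.98% (median -0.04). At 13 or more there were 6 such genes, with 0 lower and 1 higher. Over the 130 probe sets at 10 or more, level and difference had a Spearman correlation of 0.68, and over all 191 it was 0.29. Probe sets of a gene and all probe sets of an array share their source, so this is a description. The highest value in the table was 13.98, and the brightest member, Rpl9, lay at 13.60. A limit of the signal at the bright end was not tested.

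The same order was seen within genes. Of 38 members with several probe sets, the median difference of the dimmer probe sets was below that of the brightest in 34. Rpl9, a large subunit protein, had 8 probe sets, of which 7 fell. Its brightest gave 13.64, 13.53 and 13.52 in caffeine+ cells and 13.52, 13.69 and 13.70 in caffeine- cells, which overlapped (difference -0.07 ± 0.05, limma adjusted p = 0.32). Its dimmest had 8.24 ± 0.06 in caffeine+ cells and 8.95 ± 0.11 in caffeine- cells (SD, n = 3), a difference of -0.71 ± 0.08 (limma adjusted p = 0.00039). Rps12, of the small subunit, had 7 probe sets, 5 of them lower, with differences between -0.71 and -0.05. Rpl13, of the large subunit, had 9, 5 of them lower, with differences between -0.71 and -0.09, although its brightest did not pass (limma adjusted p = 0.094).

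**Figure D4:**
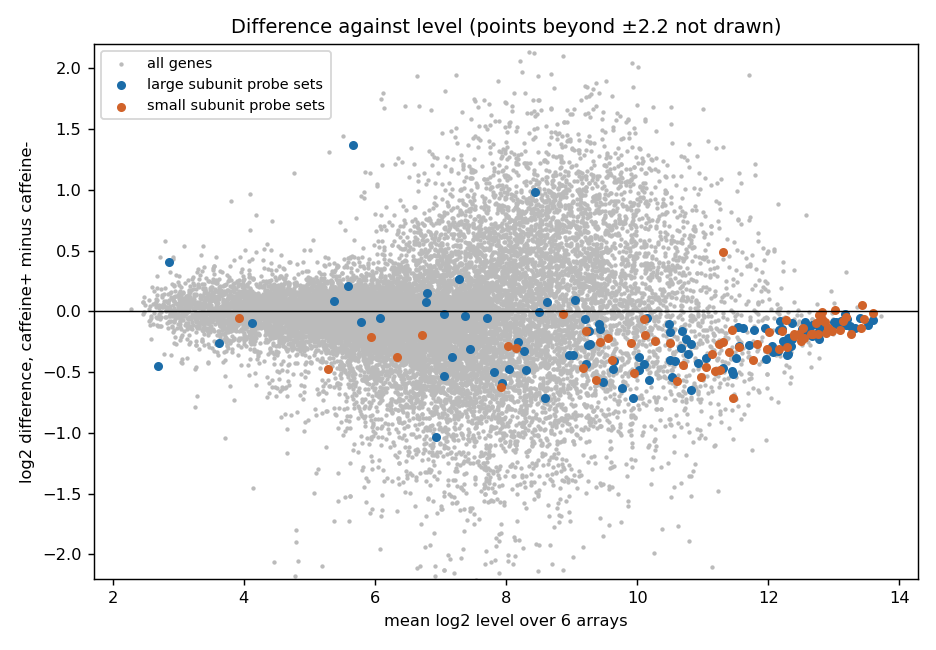
Log2 difference (caffeine+ minus caffeine-) against mean log2 level for 191 probe sets of ribosomal protein genes (large subunit blue, small subunit orange) over all genes (grey). From a level of 10 upward nearly all coloured points lie below 0 and approach it toward the bright end.

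At the bright end the members were set beside other bright genes. Of 74 genes outside the family with a mean log2 level of at least 12, 39.2% were lower and 14.9% higher, with a median difference of -0.06. Of the 40 members at that level 25 were lower, with a median of -0.12. The brightest members besides Rpl9 were Rps4x and Rpl23a. Rps4x, a small subunit protein, had 13.56, 13.64 and 13.58 in caffeine+ cells and 13.63, 13.64 and 13.54 in caffeine- cells, which overlapped (difference -0.01 ± 0.04, limma adjusted p = 0.86). Rpl23a, which lies at the exit of the peptide tunnel, differed by -0.11 ± 0.04 (limma adjusted p = 0.030). That call was lost in 6 of 17 settings.

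Rps6, the small subunit protein that S6 kinase phosphorylates, had differences of either sign across its probe sets. Its brightest probe set had 13.46, 13.51 and 13.42 in caffeine+ cells and 13.34, 13.49 and 13.39 in caffeine- cells, which overlapped, with a difference of 0.06 ± 0.04 (limma adjusted p = 0.36). The other 6 probe sets had differences between -0.47 and -0.02, and 1 of them fell (-0.19 ± 0.06, limma adjusted p = 0.036). With the mean of the 7 probe sets the gene was lower (-0.19, limma adjusted p = 0.037). Rpl5 fell by 0.13 (SE 0.04, limma adjusted p = 0.027), a call lost in 9 of 17 settings.

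The members nearest the threshold had differences of similar size on either side. Just inside were Rpl41 (-0.10 ± 0.04, limma adjusted p = 0.0497), Rpl10 (-0.09 ± 0.03, 0.049) and Rpl23 (-0.09 ± 0.03, 0.042), and just outside were Rps7 (-0.10 ± 0.04, 0.061), Rpl22 (-0.16 ± 0.07, 0.073) and Rpl13. Rpl10 joins the large subunit late in its maturation. The calls of Rpl41 and Rpl10 were each lost in 12 of 17 settings, and that of Rpl23 in 10. Of those just outside, Rps7 passed in 6 of 17 settings, Rpl13 in 3 and Rpl22 in 2.

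The paralogs with symbols of their own were Rpl3l, Rpl10l, Rpl32l, Rpl39l, Rps4l and Rps27l. Of these 1 of 6 fell (16.7%), against 21.7% of all genes. Rps27l, a paralog of Rps27 that p53 induces, had 9.30, 9.52 and 9.45 in caffeine+ cells, against 9.87, 9.88 and 9.72 in caffeine- cells. Its groups did not overlap, and it was 1.32-fold lower (difference -0.40 ± 0.07, limma adjusted p = 0.00039). The 3 dimmest members were Rpl39l, Rpl10l and Rpl3l. Rpl39l and Rpl10l are known for the testis and Rpl3l for striated muscle. Rpl39l had 4.00, 4.00 and 4.22 in caffeine+ cells and 4.01, 4.05 and 4.44 in caffeine- cells, and Rpl10l had 5.15, 5.26 and 5.83 in caffeine+ cells and 5.59, 5.28 and 5.12 in caffeine- cells. Rpl3l had 5.67, 5.57 and 5.82 in caffeine+ cells and 5.34, 5.46 and 5.63 in caffeine- cells. All 3 overlapped between groups, with limma adjusted p = 0.66, 0.77 and 0.19, and such dim values do not show that a gene is silent. Rps4l, which the reference lists as a transcribed pseudogene, differed by -0.20 ± 0.15 (limma adjusted p = 0.38).

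Many ribosomal protein genes carry small nucleolar RNA (snoRNA) genes in their introns. In the reference annotation 19 members have at least 1 snoRNA gene in their span. Of these 11 were lower and 1, Rpl12, was higher, with a median difference of -0.11. Of the 40 others 20 were lower and 1 higher, with a median of -0.13. Among all genes 21.7% were lower and 16.2% higher. In the fit of every probe set, 13.9% were higher and 16.2% lower. Of 5 probe sets that name both a member of the family and a snoRNA, 2 rose, 1 fell and 2 did not pass. Besides the Snora65 probe set of Rpl12, the one shared by Rps13 and Snord14a had 7.65 ± 0.03 in caffeine+ cells and 6.82 ± 0.09 in caffeine- cells (SD, n = 3), a difference of 0.82 ± 0.08 (limma adjusted p = 0.00023). Rps13's own brightest probe set differed by -0.07 ± 0.04 (limma adjusted p = 0.26). The probe set shared by Rpl13a and Snord32a fell by 0.25 (SE 0.08, limma adjusted p = 0.040).

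Other genes of the translation machinery were read from lists chosen for their roles. Among ribosomal genes outside the symbol rule, Fau, whose product is cleaved into a small subunit protein, was 1.22-fold lower (-0.29 ± 0.05), and Rpl7l1, a factor of large subunit maturation, 2.15-fold lower (-1.10 ± 0.09). These were the 2 measured of 6 listed. Of 16 other mRNAs known for a TOP tract 5 were lower (31.25%) and 1 higher (6.25%), against 21.7% and 16.2% of all genes. The 16 had a median difference of -0.03 and lay at mean log2 levels of 11.16 to 13.72. Among genes outside the ribosomal protein family, 37.75% were lower and 39.84% higher at levels between 10 and 12. At 12 or more, 39.2% were lower and 14.9% higher, so the share of falls among the 16 was not above that of bright genes. Eif3f, an initiation factor subunit, was 1.29-fold lower and Eif4b, which assists the helicase of initiation, 1.18-fold lower, while the elongation factor subunit gene Eef1d was 1.28-fold higher.

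Ribosome biogenesis factors had a larger share of rises than all genes, and a share of falls near that of all genes. Of 65 ribosome biogenesis genes 29 were higher (44.6%) and 14 lower (21.5%), against 16.2% and 21.7% of all genes. The median difference of the 65 was 0.15. Their median log2 level was 8.80, against 6.68 over all genes, and the lists that follow had medians of 7.90 to 8.42. In a separate fit of the 9968 genes above the median level, 3070 were higher and 3496 lower (35.1%). The lists were not compared with genes of like level. Wdr36 and Nop14, of the small subunit processome, were 2.85-fold and 2.27-fold higher, and Nop56, of the box C/D snoRNA particle, was 2.13-fold higher. Of 12 genes of RNA polymerase I transcription 5 were higher and 1 lower, with Taf1b 3.57-fold, Ttf1 2.24-fold and Polr1c 1.58-fold higher. Of 15 genes of mTORC1, S6 kinase and LARP1, which control TOP mRNAs, 6 were higher (40.0%) and 4 lower (26.7%). Mtor, the kinase itself, was 2.50-fold higher, its activator Rheb 2.41-fold higher and Tsc1, which restrains Rheb, 2.27-fold higher. Of 13 genes of ribosome rescue 8 were higher and 0 lower in limma (9 at an unadjusted p under 0.05 in either direction), among them Hbs1l (2.10-fold), Ltn1 (2.02-fold) and Ascc3 (1.78-fold).

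Mitochondrial ribosomal protein genes build the separate ribosome of mitochondria. Of 77 genes 40 were lower (51.95%) and 13 higher (16.88%), against 21.7% and 16.2% of all genes. The median difference was -0.23, with a range of -1.35 to 1.57. Mrps33 was 2.55-fold and Mrpl41 2.29-fold lower, and Mrps30 was 2.96-fold higher. The mean log2 levels of the 77 genes ran from 6.15 to 10.8, with a median of 8.38, against 6.68 over all genes. Whether their differences differ from those of the cytosolic family was not tested.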

How the data were processed

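The deposited table holds the authors' processed log2 intensities of 34760 probe sets on 6 arrays. No header states the unit. It was taken from the range of 1.90 to 13.98, and the sources used here name no summarization method, normalization or genome build. Per the labels' protocols, 300 ng of total RNA was labelled per array. Names came from the platform's annotation (21640 with 1 symbol, 1321 with several, 11799 not listed), and 21553 of the first were matched by identifier to the GRCm38.p6 gene table. The contrast of caffeine+ minus caffeine- was fitted by lmFit and eBayes with an intensity trend (limma 3.58.1, R 4.3.3), two-sided, without a filter on dim genes. The same fit was also run on simulated data with independent noise, which does not test the scaling or the calls reported here. Lists are described, without a test of the list, by counts, medians, the values of named genes and, for markers, the summed signal per array.

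Members, lists and alternatives were chosen with earlier results of these data known. Named members were the 8 largest rises and falls past the threshold without overlap (there were 2 rises), the 3 brightest and dimmest, the 3 nearest the threshold on either side, every member with own probe sets past it in opposite directions (there was none, shared probe sets left aside), and a fixed set chosen for their roles. Up to 3 genes of each companion list were named by smallest p. Rps12, Rpl7a, Rpl34, Rpl35, Rpl35a, Rps23, Rps13, Rps20 and the Snord32a probe set were named after their values were seen. The alternatives were another normalization, filters, other uses of probe sets, other variance models, the replicate block and each array left out. The number of arrays limits the precision.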

Additional observations from a re-analysis of the deposited data

How the results depend on the processing

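Of 59 members 31 were lower, and the median differences of large and small subunit genes were -0.12 and -0.15. Centring arrays on their medians gave 14 lower members (23.7%, against 18.8% of all genes in that fit) with medians of -0.0585 and -0.0939. Quantile normalization gave 21 (35.6%, against 21.8% of all genes) with medians of -0.053 and -0.0861. Without the intensity trend 11 were lower (18.6%), a share below the 21.1% of all genes in that fit. With each array left out in turn, 20 to 35 were lower (33.9% to 59.3%), against 19.1% to 21.9% of all genes. Of these members 19 were lower in every case, and the small subunit median ran from -0.17 to -0.11. That median was -0.20 with probe sets of a gene averaged and -0.19 with the second-brightest probe set, an alternative chosen after seeing the data. Counting shared probe sets in, also chosen after seeing the data, gave 31 lower and 2 higher of 75 genes, but turned Rpl12 (-0.1187) and Rps15a (-0.1289) to lower, so the 2 rises were other genes. That alternative also uses the fit of every probe set, which by itself ended the calls of Rpl5, Rpl7a, Rpl10, Rpl23, Rpl23a and Rpl41. Replicate numbers were not taken to pair arrays, since deviations of same-numbered arrays correlated at -0.028, 0.190 and 0.293. With the replicate block 29 members were lower (49.2%, against 23.4% of all genes) and 2 higher, and Rps19 passed (limma adjusted p = 0.030). In the settings that used own probe sets Rpl12 and Rps15a, with 1 own probe set each, stayed higher. Rps20 joined them under quantile normalization (0.07, limma adjusted p = 0.033, against -0.01 in the reported fit). Rps6 changed sign with the mean of its probe sets (-0.19). Of 29 named members, 15 stayed on their side of the threshold in every setting in which they were tested on their own probe sets, shared ones left aside. The number of falls thus depends on the scaling, the variance model and the arrays used, and 3 arrays per group limit its precision.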
